A study of Mus musculus with 6 samples.

Results

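The genes described are 10 transcription factor genes chosen by symbol, most of which cells switch on early after a stimulus. These are the Fos family (Fos, Fosb, Fosl1 and Fosl2), the Jun family (Jun, Junb and Jund), and Egr1, Atf3 and Myc. They are 10 of the 55450 genes in the table of kidney counts, and all 10 were among the 16592 genes with enough counts to be tested, Fosb only through its day-21 counts. Kidney mRNA was sequenced in 3 mice of the day-0 group and 3 mice of the day-21 group, all of them male C57BL/6J wild type mice that were 7 weeks old at purchase and acclimated for 1 week. Mice of the day-21 group received adenine at 0.16 g/kg and potassium oxonate at 2.4 g/kg by gavage every day for 21 days, and day-0 mice carry a label of 20%PEG. Adenine and potassium oxonate, an inhibitor of uricase, raise uric acid and injure the kidney, so the model holds adenine injury and raised uric acid together and these cannot be told apart.

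AP-1 is a dimer of basic leucine zipper (bZIP) proteins, in which a Jun protein pairs with another Jun or with a Fos protein and binds the DNA word TGACTCA or, in some pairs with ATF or CREB proteins, TGACGTCA. Most of these genes are immediate early genes: growth factors, cytokines, osmotic load and injury act through MAP kinases on factors already bound at their promoters, and transcription begins without new protein synthesis. Their mRNAs are usually short-lived, and in kidney they are known as early genes of ischaemic and toxic tubular injury. The libraries held between 10963849 and 14333311 counts. Levels are given as CPM, a gene's counts relative to its library's total after TMM scaling, and a gene was called when the edgeR quasi-likelihood test gave a Benjamini-Hochberg adjusted p under 0.05 and a fold over 1.5.

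Whole kidney was measured, so more cells of a type and more mRNA per cell cannot be told apart in any result given here. Proximal tubule markers summed to between 23800 and 35500 CPM in day-0 mice, and all 10 of them were lower on day 21, when they summed to between 3940 and 5760 CPM. Over the same comparison, macrophage markers went from between 169 and 220 to between 975 and 1310 CPM (10 of 10 called higher), fibroblast and myofibroblast markers from between 273 and 400 to between 1210 and 2270 CPM (8 of 8), T cell markers from between 6.21 and 13.0 to between 35.7 and 42.4 CPM (8 of 8, of which 6 passed the filter on low counts only through day 21), and injured tubule markers from between 223 and 298 to between 2600 and 2830 CPM (7 of 7). Among the macrophage and the injured tubule markers, 1 of each also passed this filter only through day 21. Every day-21 mouse lay above every day-0 mouse in 5 of the 8 fibroblast and myofibroblast markers. The same held for all of the macrophage, T cell and injured tubule markers. The part of these cell types in the changes of the 10 genes was not tested. One library stood apart for these genes: mouse 1 of the day-0 group had the highest CPM of its group in 9 of the 10 genes. The fold changes, levels and shares of the 10 genes and the list counts are therefore also given without it.

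Promoter sequences of RefSeq on GRCm38.p6, from 250 bases before to 50 after the annotated start, were found for 7 of the 10 genes, which leaves out Fosl1, Egr1 and Myc. Those of Fos, Junb and Atf3 are shown because these had the largest folds among the 7. Capitals mark TGACG, the first letters of the CREB and ATF binding word, on either strand, and TATAAA, the TATA box.

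Fos, chr12:85473640-85473939, plus strand: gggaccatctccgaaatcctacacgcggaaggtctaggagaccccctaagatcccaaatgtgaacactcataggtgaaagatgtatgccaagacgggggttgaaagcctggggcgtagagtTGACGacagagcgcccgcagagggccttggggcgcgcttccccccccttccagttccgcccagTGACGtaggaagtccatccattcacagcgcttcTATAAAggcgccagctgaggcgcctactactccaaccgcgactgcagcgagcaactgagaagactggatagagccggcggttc

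Junb, chr8:84978699-84978998, minus strand: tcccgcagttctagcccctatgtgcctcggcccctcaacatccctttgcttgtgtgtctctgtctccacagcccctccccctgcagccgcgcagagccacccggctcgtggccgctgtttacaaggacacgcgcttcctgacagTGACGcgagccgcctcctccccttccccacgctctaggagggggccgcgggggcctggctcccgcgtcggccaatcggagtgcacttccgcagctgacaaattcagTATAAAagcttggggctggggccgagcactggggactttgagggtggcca

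Atf3, chr1:191183284-191183583, minus strand: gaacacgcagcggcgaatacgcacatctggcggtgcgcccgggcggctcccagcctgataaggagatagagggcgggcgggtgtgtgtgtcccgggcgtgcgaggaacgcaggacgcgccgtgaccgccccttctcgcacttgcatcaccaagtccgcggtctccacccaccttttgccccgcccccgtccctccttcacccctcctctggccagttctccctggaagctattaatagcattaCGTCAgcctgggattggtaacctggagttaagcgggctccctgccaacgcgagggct

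In Fos, TGACG began 129 and 66 bases upstream of the start and TATAAA began 33 bases upstream. In Junb, TGACG began 106 bases upstream, and TATAAA began at the first transcribed base of the RefSeq entry. The Atf3 match, 7 bases upstream, lay on the opposite strand and reads CGTCA in the line shown. The RefSeq start of Atf3 is not the outermost start of the gene in the GENCODE annotation, and the RefSeq window of Jund ends 1161 bases before the annotated gene in which its counts were taken. Among the 7 promoters, TGACG was in 4 (Fos, Fosb, Junb and Atf3), where 20.8% of the 32851 RefSeq promoters of that length hold it on either strand. TATAAA was in 2 (Fos and Junb), against 13.6% of all promoters. The word TGANNTCA, which includes the variant site known from the Jun promoter, was in 2 (Jun and Jund), against 14.1% of all. This word covers TGACGTCA, of which TGACG is also a part. Neither TGACGTCA nor the AP-1 word TGACTCA was in any of the 7 windows (1.79% and 5.2% of all promoters), nor was the CArG box bound by serum response factor (1.63%), which in Fos is known to lie further upstream than these windows reach, nor the Myc and Max word CACGTG (7.15%).

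The genes are also compact, with a median span of 5073 bases against 24530 over the protein-coding genes tested. All 10 are annotated as protein-coding in GENCODE M21, and Jun, Junb and Jund consist of 1 exon in their longest coding transcript, Egr1 of 2, Myc of 3, and the other 5 of 4. Over all 13883 protein-coding genes tested, 22.0% had 4 or fewer exons and the median was 9.0. The AU-rich word TATTTAT, a known mark of short-lived mRNAs, occurred after the stop codon of the longest coding transcript in 7 of the 10 genes, against 29.6% of the protein-coding genes tested. It was not found after the stop codon of Junb, Egr1 or Myc. Stretches of 30 bases around the word, in capitals, are shown for Fos, Jun and Atf3, one gene of each bZIP subfamily among the 10.

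Fos, chr12:85477102-85477131, plus strand: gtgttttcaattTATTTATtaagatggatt

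Jun, chr4:95049079-95049108, minus strand: tttgcttgtgcaTATTTATaatagcgttcg

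Atf3, chr1:191170338-191170367, minus strand: gaaaatattactTATTTATcccagtattcc

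The first question was whether mRNA of these genes differed between the day-21 group and the day-0 group. The genes were chosen with earlier results of these data known, so their counts beside all genes are a description and not an independent test. All 10 were called higher on day 21, where 35.1% of all genes tested were called in either direction and 19.6% were called higher. This count includes Fosb, which passed the filter on low counts only through day 21. Of all 16592 genes tested, 1498 passed only through day 21 and 297 only through day 0. In all 10 every day-21 mouse lay above every day-0 mouse, as in 30.7% of all genes tested. The two-sided exact permutation test on log2 CPM gave p = 0.1 for each gene, the smallest that 3 mice a group allow. Folds ran from 1.58 for Jund to 4.71 for Atf3, with a median log2 fold change of 1.44 against 0.032 over all genes tested. Fosb, Fosl2 and Jund were the 3 genes whose call was lost when single mice were left out.

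**Figure D1:**
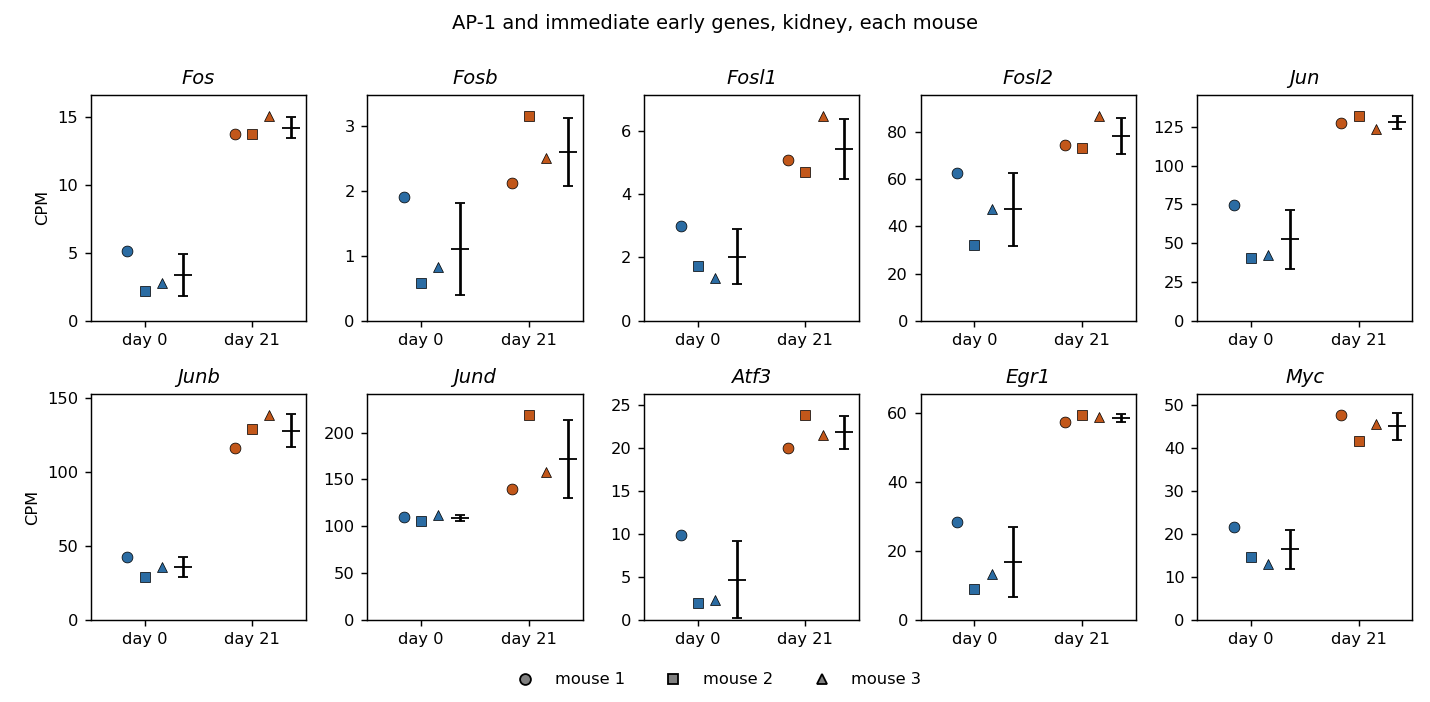
CPM of each of the 10 genes (y axes, linear from 0, each panel with its own range) in the 3 day-0 mice (blue) and the 3 day-21 mice (orange), with symbols for mouse 1, 2 and 3 of each group and a bar for the mean with its SD. No day-21 mouse lies below a day-0 mouse in any panel, and day-0 mouse 1 (circles) lies nearest to the day-21 group in 9 panels.

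Fos, the namesake partner of Jun in AP-1 (chromosome 12, 85473890 to 85477273), had 51, 27 and 27 counts in day-0 mice 1 to 3 and 195, 231 and 247 counts in day-21 mice 1 to 3. In CPM this was 3.37 ± 1.53 (SD, n = 3) on day 0 and 14.2 ± 0.776 (SD, n = 3) on day 21. The day-21 mice lay close together, and the lowest of them was 2.69 times the highest day-0 mouse. The log2 fold change was 2.09 ± 0.28 (SE; 95% interval 1.47 to 2.70), with an edgeR adjusted p of 0.000181. Without day-0 mouse 1 it was 2.49.

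The other Fos family genes had smaller log2 fold changes than Fos. Fosl1, which encodes FRA1 and lacks the transactivation domain of Fos, had 30, 21 and 13 counts on day 0 and 72, 79 and 106 counts on day 21. Its log2 fold change was 1.42 ± 0.33 (SE), with an edgeR adjusted p of 0.00577. The groups were apart, and the value without day-0 mouse 1 was 1.78.

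Fosl2, which encodes FRA2, was the most abundant Fos family mRNA per length. It had 626, 388 and 459 counts on day 0 and 1058, 1232 and 1424 counts on day 21. The groups came close, since the lowest day-21 mouse was 1.17 times the highest day-0 mouse in CPM. The log2 fold change of 0.73 ± 0.20 (SE), with an edgeR adjusted p of 0.0143, was 0.97 without day-0 mouse 1. It fell to 0.51, a fold under 1.5, without day-0 mouse 2, and the adjusted p reached 0.0555 without day-21 mouse 3.

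Fosb, known for its short and stable splice form in neurons, was the scarcest of the 10, with 19, 7 and 8 counts on day 0 and 30, 53 and 41 counts on day 21. Day-0 mouse 1 and day-21 mouse 1 were close, at 1.90 and 2.12 CPM. The log2 fold change was 1.25 ± 0.46 (SE; 95% interval 0.24 to 2.27), with an edgeR adjusted p of 0.0453. Its call held without day-0 mouse 1, at 1.88, and was lost when any of the other 5 mice was left out, with values from 0.92 to 1.38 and adjusted p up to 0.142. As 1 of 3 day-0 mice and 3 of 3 day-21 mice exceeded the filter on low counts, Fosb entered the test only because it was higher on day 21.

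Among the Jun genes, Junb had the largest log2 fold change. Junb, which often acts against Jun on shared promoters and is a gene of cytokine responses (chromosome 8, 84974484 to 84978718), had 424, 349 and 347 counts on day 0 and 1647, 2168 and 2269 counts on day 21. Its CPM was 35.6 ± 6.87 (SD, n = 3) on day 0 and 128 ± 11.3 (SD, n = 3) on day 21. No day-21 mouse was below 2.74 times the highest day-0 mouse, the widest gap among the 10 genes. Day 21 exceeded day 0 by 1.85 ± 0.15 (SE) on the log2 scale, with an edgeR adjusted p of 8.8e-06, and by between 1.71 and 1.97 when any single mouse was left out.

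Jun, the founding member of AP-1 and the substrate of the JNK kinases (chromosome 4, 95049034 to 95052222), had 745, 493 and 413 counts on day 0 and 1811, 2221 and 2023 counts on day 21. On day 21 the mice agreed closely, at 128, 132 and 124 CPM, whereas day-0 mouse 1 stood at 74.6 CPM and the other day-0 mice at 40.6 and 42.5 CPM. This gave a log2 fold change of 1.29 ± 0.21 (SE), with an edgeR adjusted p of 0.000612, and it was 1.60 without day-0 mouse 1.

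Jund, a Jun gene that is expressed at steady levels in many resting tissues, had the smallest change. It had 1092, 1286 and 1084 counts on day 0 and 1977, 3679 and 2587 counts on day 21. Here the spread lay in the day-21 group, with mouse 2 at 219 CPM and mice 1 and 3 at 139 and 158 CPM, while the day-0 mice lay between 106 and 111 CPM. The log2 fold change of 0.66 ± 0.16 (SE), with an edgeR adjusted p of 0.00638, fell to 0.45, a fold under 1.5, without day-21 mouse 2. Without day-0 mouse 1 it was 0.65.

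Atf3, a bZIP repressor and activator that pairs with Jun proteins and marks cell stress, had the largest log2 fold change of the 10. It had 98, 24 and 22 counts on day 0 and 283, 400 and 352 counts on day 21. Day-0 mouse 1 was far above the other day-0 mice, at 9.81 CPM against 1.98 and 2.26 CPM, and the day-21 mice lay between 20.0 and 23.8 CPM. For Atf3 the log2 fold change was 2.24 ± 0.46 (SE; 95% interval 1.20 to 3.27), with an edgeR adjusted p of 0.00293. That mouse decided the size: the value was 3.34 without it and 1.85 without day-0 mouse 2.

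Egr1, a zinc finger factor outside the bZIP family that is switched on through serum response factor, had 283, 109 and 128 counts on day 0 and 810, 997 and 958 counts on day 21. The day-21 mice lay within 57.2 to 59.4 CPM, and the day-0 mice at 28.3, 8.97 and 13.2 CPM. Egr1 had a log2 fold change of 1.80 ± 0.32 (SE), with an edgeR adjusted p of 0.00116, and 2.39 without day-0 mouse 1.

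Myc, a helix-loop-helix factor of growth and ribosome synthesis that pairs with Max (chromosome 15, 61985391 to 61990374), had 215, 177 and 127 counts on day 0 and 676, 699 and 745 counts on day 21. In CPM this was 16.4 ± 4.51 (SD, n = 3) and 45.0 ± 3.08 (SD, n = 3). For Myc the log2 fold change was 1.46 ± 0.18 (SE), with an edgeR adjusted p of 0.000108, and 1.68 without day-0 mouse 1.

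**Figure D2:**
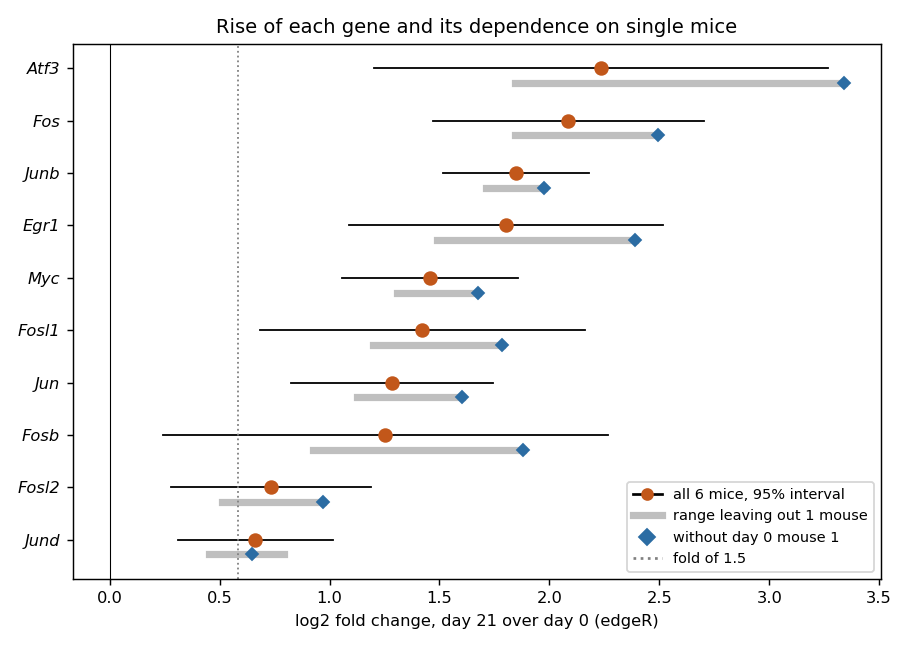
Log2 fold change of day 21 over day 0 (x axis, edgeR) for the 10 genes (y axis) from all 6 mice (orange points, 95% intervals as black lines), the range over fits that leave out 1 mouse (grey bars) and the fit without day-0 mouse 1 (blue diamonds). The dotted line is a fold of 1.5; the grey bars of Fosl2 and Jund reach below it, to 0.51 and 0.45, and leaving out day-0 mouse 1 gave the highest value in all genes but Jund.

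The mice of the day-0 group differed among themselves in these genes more than those of the day-21 group. The ratio of the highest to the lowest CPM within a group had a median of 2.10 over the 10 genes on day 0 and 1.19 on day 21, and it was wider on day 0 in 9 of them, with Jund as the exception (1.05 and 1.57). For comparison, the medians over genes with a mean of at least 50 counts were 1.31 on day 0 and 1.18 on day 21. Mouse 1 of the day-0 group was the highest of its group in 9 of the 10 genes, against 32.5% of all genes tested, and mouse 2 was the lowest in 8, against 33.2%. Relative to the mean of the other day-0 mice, mouse 1 was 4.63 times as high in Atf3, 2.72 in Fosb, 2.56 in Egr1 and 2.04 in Fos. It was 1.96 times as high in Fosl1, 1.80 in Jun, 1.58 in Fosl2, 1.56 in Myc and 1.32 in Junb, and level at 1.01 in Jund.

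The same mouse was the highest of its group in 24 of 42 other immediate early genes tested (57.1%). At least 2 times the CPM of both other day-0 mice was reached by Atf3 and Egr1 among the 9 genes with a mean of at least 50 counts, and by Egr2, Nr4a1, Nr4a3, Plk3 and Socs3 among 39 other immediate early genes, against 0.73% of 13142 genes at that mean. None of the 9 genes was that far above its group in any other mouse. All 10 genes were called higher without this mouse as well.

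**Figure D3:**
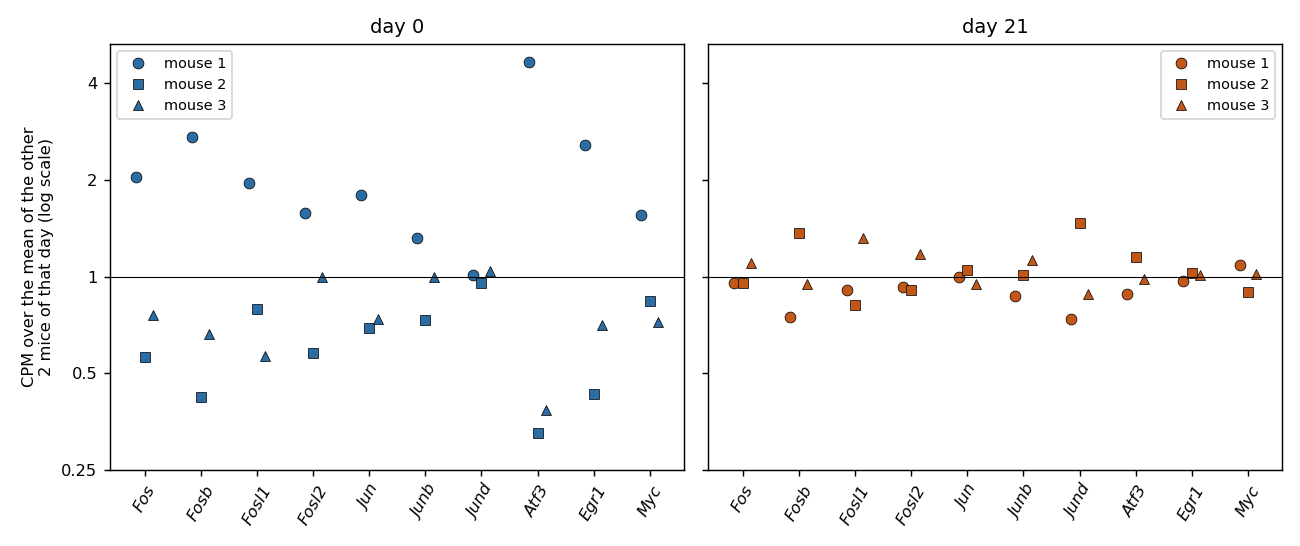
CPM of each mouse over the mean of the other 2 mice of its day (y axis, log scale) for the 10 genes (x axis), day 0 on the left and day 21 on the right, with a symbol for each mouse. Day-0 mouse 1 lies above 1 in all 10 genes, up to 4.63 for Atf3, and the day-21 mice lie between 0.74 and 1.47.

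Levels of different genes were compared per length, as RPKM (CPM per kilobase of merged exons). On day 0 Jund was by far the highest, at 65.3 ± 1.73 RPKM (SD, n = 3), followed by Jun at 16.5 ± 5.99 and Junb at 15.5 ± 2.98, which overlapped. Next came Myc at 6.03, Fosl2 at 4.88, Egr1 at 3.75, Atf3 at 2.17, Fos at 1.43 and Fosl1 at 0.995 RPKM, each overlapping its neighbour in this order between mice. Fosb was last, at 0.176 RPKM, below all mice of Fosl1. On day 21 Jund led again at 103 ± 24.9 RPKM (SD, n = 3), then Junb at 55.7 ± 4.91 and Jun at 40.1 ± 1.34, followed by Myc at 16.6, Egr1 at 13.0, Atf3 at 10.1, Fosl2 at 8.10, Fos at 6.04, Fosl1 at 2.67 and Fosb at 0.416 RPKM. By merged exon length, no neighbours in the day-21 order overlapped between mice, and Egr1 and Atf3 were below Fosl2 on day 0 and above it on day 21. This order depends on the length used, since Fosl2 has 9680 bases of merged exons and 6537 in its longest transcript. An order by longest transcript was not computed. Without day-0 mouse 1 the day-0 means were 65.2 for Jund, 14.0 for Junb, 13.0 for Jun, 5.09 for Myc, 4.09 for Fosl2, 2.47 for Egr1, 1.06 for Fos, 0.984 for Atf3, 0.754 for Fosl1 and 0.112 for Fosb, so that Junb stood above Jun and Fos above Atf3.

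Summed over each family, Jun mRNA went from 97.3 ± 9.46 to 199 ± 27.7 RPKM (SD, n = 3 each), 2.05-fold, and Fos mRNA from 7.49 ± 2.68 to 17.2 ± 1.55 RPKM, 2.30-fold (exact permutation p = 0.1 for each sum). These ratios were 2.16 and 2.86 without day-0 mouse 1. Within the summed RPKM of the 7 Fos and Jun genes, Jund made up 55.6%, 67.6% and 65.2% in day-0 mice 1 to 3 and 43.9%, 53.6% and 44.5% in day-21 mice 1 to 3. Every day-21 mouse thus lay below every day-0 mouse, with a two-sided exact permutation p of 0.1, the smallest this design gives. Junb made up 15.7%, 13.3% and 15.1% on day 0 and 26.5%, 22.9% and 28.3% on day 21, also apart, at an exact permutation p of 0.1. The share of Fos went from 1.33% ± 0.447 to 2.82% ± 0.38 (SD, n = 3 each, exact permutation p = 0.1). For Jun (15.5% and 18.7%, p = 0.3), Fosl2 (4.59% and 3.79%, p = 0.3), Fosl1 (0.934% and 1.25%, p = 0.2) and Fosb (0.162% and 0.191%, p = 0.6) the mice of the groups overlapped in these exact permutation tests. Without day-0 mouse 1 the mean share on day 21 less that on day 0 was -19.1 percentage points for Jund (-15.5 with it), 11.7 for Junb (11.2), 1.74 for Fos (1.49), 5.44 for Jun (3.25), -0.349 for Fosl2 (-0.802), 0.477 for Fosl1 (0.317) and 0.0774 for Fosb (0.0291). RPKM measures mRNA and not the amount of AP-1 protein dimers.

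**Figure D4:**
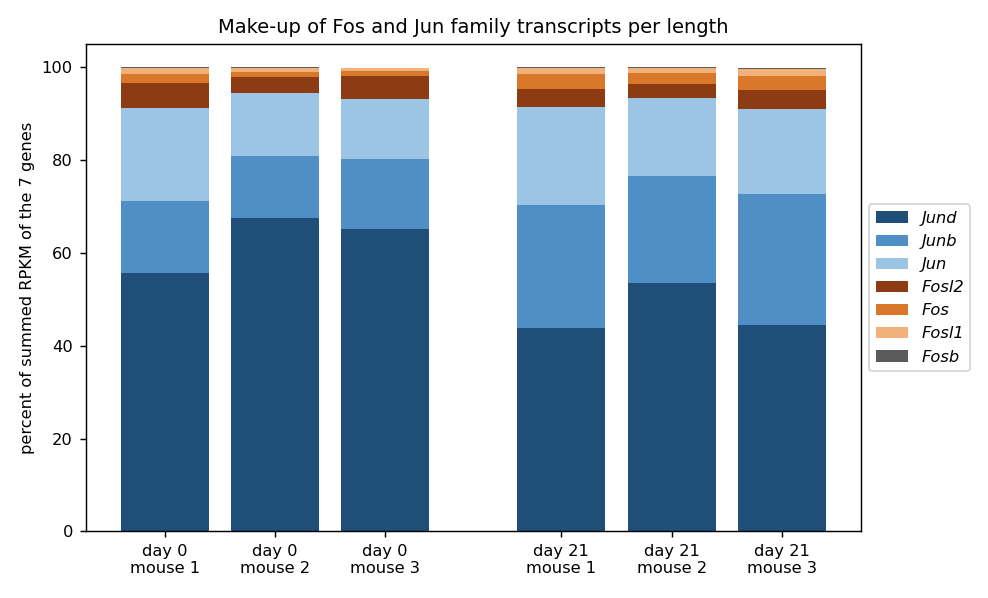
Share of each Fos and Jun family gene in their summed RPKM (y axis, percent) in each of the 6 mice (bars, day 0 left and day 21 right). The Jund share (bottom) averages 62.8% on day 0 and 47.3% on day 21, and the Junb share above it 14.7% and 25.9%.

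Some of the 10 genes overlap genes on the other strand, and no strand setting of the counting is given in the sources used here, so reads of such a pair cannot be told apart. Of the exon bases of Jund, 52.6% lie in exons of the antisense gene Gm11175, which had 970, 1258 and 966 counts on day 0 and 1582, 3106 and 2342 counts on day 21. Those are between 0.800 and 0.978 times the Jund counts of the same mice, and the log2 fold change of Gm11175 was 0.55 ± 0.16 (SE). How far such reads enter the level, the share and the fold change given for Jund was not tested. Fosl1 shares 57.2% of its exon bases with Ccdc85b, which had more counts than Fosl1 in every mouse (between 4.63 and 12.1 times) and a log2 fold change of 0.58 ± 0.17 (SE). Jun shares 7.28% of its exon bases with Junos, at 0.144 to 0.220 times the counts of Jun, and Junb shares 7.52% with Prdx2, whose log2 fold change was -0.03 ± 0.13 (SE).

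For each of the 10, the gene with the most similar profile over the 6 mice was found as the smallest root mean square difference of log2 CPM, each gene centred on its own mean. Among genes with a mean of at least 50 counts, Egr1 was nearest to Fos itself, at 0.170 log2 units. Fos was nearest to Adamts1, a secreted metalloproteinase, at 0.128, and Fosb to Dusp5, an ERK phosphatase, at 0.141. Atf3 had no close neighbour, with Bdkrb2, a bradykinin receptor, at 0.279. The others were nearest to Akap12 (Fosl1, 0.103), Psd (Fosl2, 0.0921), Ccdc112 (Jun, 0.0573), Fzd2 (Junb, 0.0693), Rpp30 (Jund, 0.0548) and Csdc2 (Myc, 0.0580). Among the 10 themselves Jun and Myc were closest, at 0.141, and Jund and Atf3 farthest apart, at 1.20. With so few mice many genes share the contrast of the groups, and these profiles include day-0 mouse 1. With a mean of at least 200 counts 8 of the 10 nearest genes, all but those of Fos and Fosl1, were others. This limit only removes candidate genes and leaves the distances as they were. A nearest gene could therefore change only where the earlier one was removed, as were Fos and Dusp5, with means of 130 and 90.7 counts. The 8 changes thus do not show how stable the likeness of the profiles is. With 0.5 in place of 2 counts added before taking logs, Fosl1 was nearest to Serpina3g (0.123) and the other nearest genes stayed the same.

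The remaining genes of the pathway were described as lists, each read beside the 19.6% of all genes called higher and the 15.5% called lower. These lists, too, were chosen with earlier results of these data known. Of 42 other immediate early genes tested, 20 were called higher and 3 lower, with a median log2 fold change of 0.59; without day-0 mouse 1 these were 21 and 3. Of the genes called higher, Egr2, Egr3 and Dusp2 passed the filter on low counts only through day 21, as did Nr4a2, which was not called. Egr2, a relative of Egr1, had 2.70, 0.329 and 1.34 CPM on day 0 and 11.5, 9.05 and 13.6 CPM on day 21 (8.02-fold, with an SE of 0.47 on the log2 scale). Ccn1, a matricellular protein, rose from between 15.7 and 23.3 to between 100 and 127 CPM (log2 fold change 2.55 ± 0.16, SE), and Socs3, the feedback inhibitor of cytokine signalling, from between 7.49 and 20.3 to between 50.2 and 71.2 CPM (2.36 ± 0.31). Not all early genes moved the same way. Sgk1, a kinase of sodium transport, fell by 1.35 ± 0.15 on the log2 scale (SE), Errfi1, an inhibitor of EGF receptor signalling, fell by 0.78 ± 0.13, and Dusp1, a phosphatase that inactivates MAP kinases, fell by 0.74 ± 0.19.

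Of 22 bZIP genes tested, a list of dimer partners of Fos and Jun proteins and of their relatives, 8 were called higher and 1 lower. The median log2 fold change was 0.06. These counts were the same without day-0 mouse 1, and 5 higher and 1 lower without day-21 mouse 2. Creb5 had between 0.988 and 1.80 CPM on day 0 and between 6.99 and 8.34 CPM on day 21 (log2 fold change 2.39 ± 0.29, SE). Maff, a small Maf protein, rose by 1.20 ± 0.26 and Cebpd, a factor of the acute phase, by 1.05 ± 0.21 on the log2 scale. Maf was the 1 gene called lower, at -1.01 ± 0.11 (SE). Batf and Batf3, bZIP factors of immune cells, were the lowest of those called, with 8, 8 and 1 and 13, 9 and 6 counts on day 0, and passed the filter on low counts only through day 21.

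Genes of the kinases and serum response factors upstream had about the share of calls found over all genes. Of 31 tested, 6 were called higher and 3 lower, 29.0% in all against 35.1%, with a median log2 fold change of 0.04 and the same counts without day-0 mouse 1. The named rises were Rps6ka1, an ERK-activated kinase (1.42 ± 0.13, SE), Mapk7, which encodes ERK5 (1.13 ± 0.17), and Elk3, a partner of serum response factor (1.04 ± 0.14), and the named falls were Map3k5, which encodes ASK1 (-0.88 ± 0.11), and Braf (-0.81 ± 0.14). Srf, the serum response factor itself, had between 25.8 and 32.0 CPM on day 0 and between 26.7 and 31.7 CPM on day 21, with an edgeR adjusted p of 0.840. Activity of these kinases lies in their phosphorylation, which mRNA does not measure.

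Of 20 textbook AP-1 target genes tested, 10 were called higher and 2 lower, with a median log2 fold change of 0.64. Timp1, Mmp3 and Ccl2, all called higher, passed the filter on low counts only through day 21. Timp1, an inhibitor of matrix metalloproteinases, had 9, 6 and 2 counts on day 0 and 586, 603 and 669 counts on day 21 (log2 fold change 6.18 ± 0.28, SE). Cd44, a hyaluronan receptor of injured tubules and leukocytes, went from between 2.37 and 3.70 to between 56.8 and 84.9 CPM (4.41 ± 0.23), and Spp1, which encodes osteopontin, from between 512 and 1611 to between 17380 and 21180 CPM (4.29 ± 0.39). Vegfa, the endothelial growth factor made by epithelium, fell by 1.15 ± 0.11 on the log2 scale. Hmox1, the haem-degrading stress enzyme, was called lower with 7480 counts in day-0 mouse 1 against 702 and 424 in the other day-0 mice and 953, 607 and 836 on day 21 (log2 fold change -2.46 ± 0.89, SE). Without that mouse 10 genes of this list were called higher and 1 lower, and the list also held 1 lower call in place of 2 under DESeq2, limma-voom or the replicate block, or without any single day-21 mouse. Many of these genes are also known from leukocytes and fibroblasts, and that part was not tested. Macrophage, T cell and fibroblast markers rose as given above. Neutrophil markers did not, at between 15.4 and 24.4 CPM on day 0 and between 11.1 and 11.9 CPM on day 21. Of 4 neutrophil markers tested, 1 was called higher and 2 lower.

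Of 7 genes of Egr1 corepressors and textbook targets, 5 were called higher and 1 lower. F3, which encodes tissue factor, rose by 1.79 ± 0.12 (SE), Icam1, a leukocyte adhesion receptor, by 1.71 ± 0.21, and Pdgfb, a growth factor for pericytes, by 1.68 ± 0.12 on the log2 scale. The corepressor Nab2, itself a known target of Egr1, had 73.2, 45.7 and 32.1 CPM on day 0 and 28.5, 29.2 and 31.7 CPM on day 21, and was called lower (-0.76 ± 0.24, SE, edgeR adjusted p = 0.0274). The edgeR test without any 1 of day-0 mouse 1, day-21 mouse 1 and day-21 mouse 2 left 5 genes of the list called, all of them higher.

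The genes that act with Myc did not move as one. Of 13 in the Myc, Max and Mxd network, 2 were called higher, the Myc relatives Mycl (1.76 ± 0.28, SE) and Mycn (1.32 ± 0.37), and 2 lower, Mlxipl, which encodes the glucose-sensing factor ChREBP (-0.80 ± 0.15), and its partner Mlx (-0.62 ± 0.13). The counts were the same without day-0 mouse 1, and 1 higher and 1 lower without day-21 mouse 2. Max, the partner of Myc, had between 56.0 and 60.1 CPM on day 0 and between 48.0 and 59.2 CPM on day 21 (edgeR adjusted p = 0.502). Of 21 textbook Myc targets, 5 were called higher and 3 lower, with a median log2 fold change of 0.21. The nucleolar genes Npm1 (1.22 ± 0.17) and Nop58 (0.82 ± 0.15) and the cell cycle kinase Cdk4 (0.73 ± 0.11) rose. Shmt2 of mitochondrial one-carbon metabolism (-1.78 ± 0.14), Odc1 of polyamine synthesis (-1.62 ± 0.25) and the mitochondrial chaperone Hspd1 (-1.25 ± 0.14) fell. Without day-0 mouse 1 the Myc targets held 5 called higher and 4 lower.

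**Figure D5:**
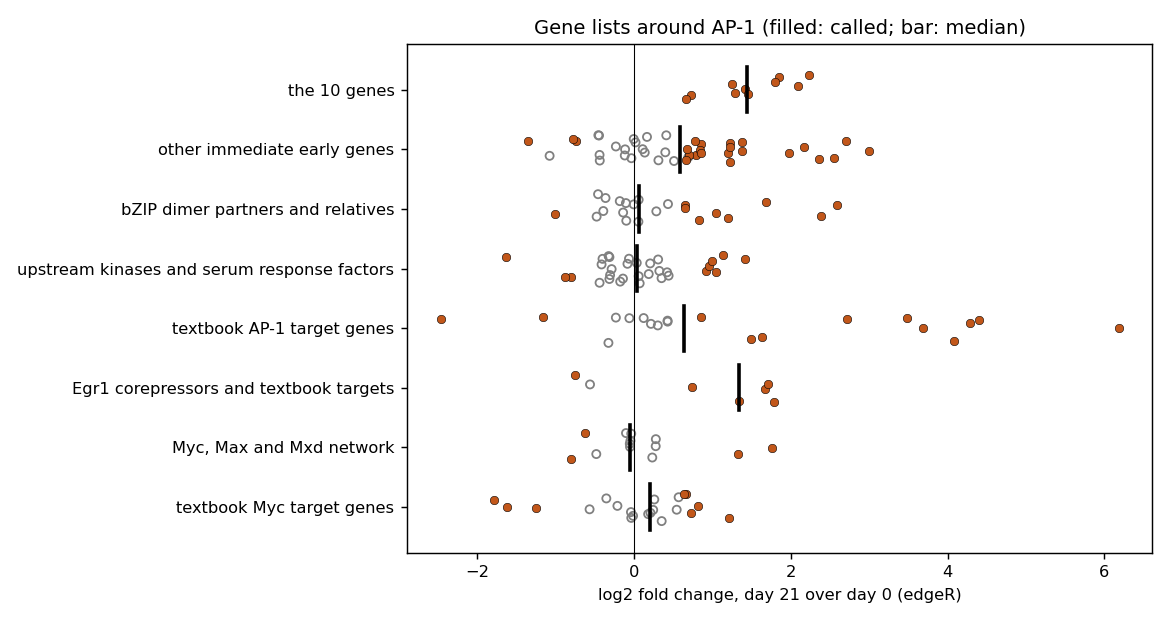
Log2 fold change of day 21 over day 0 (x axis, edgeR) for each gene tested in the 10 genes described and in 7 lists around them (y axis), with called genes filled, others open, points spread vertically at random and a bar at each list's median. The 10 genes lie between 0.66 and 2.24 with a median of 1.44, and the medians of the bZIP partners and relatives, upstream kinases and Myc network lie within 0.06 of 0.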

How the data were processed

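Kidney RNA of 6 mice was sequenced as paired-end reads. The authors deposited raw counts per gene, without normalization and with each mouse kept separate. TopHat and the build mm10 are named in the submitters' processing notes, and the counting program and its strand setting are not given in the sources used here. All 55450 identifiers matched GENCODE M21. Counts were filtered with filterByExpr (minimum count 10, minimum total 15), scaled by TMM and compared with the quasi-likelihood test of edgeR 4.0.16 in R 4.3.3 over the 16592 genes left, and SEs were taken from its F statistic. The common biological coefficient of variation was 16.2%. The edgeR, DESeq2 1.42.0 and limma-voom (limma 3.58.1) steps were tested on simulated data. Samples of a group are numbered replicates of separate animals as the study describes them, and no batch is given. Sequence words and figures were made in Python 3.11.15.

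The 10 genes and the gene lists were chosen with earlier results of these data known. Named list genes are the 3 largest called rises and falls of a list with a mean of at least 50 counts and groups apart, and Batf, Batf3, Hmox1, Srf, Max, Nr4a1, Nr4a2, Nr4a3, Plk3, Egr3, Dusp2, Mmp3, Ccl2, Ier2, Ier3, Ier5 and Ier5l were added after their values were seen. Alternatives were 3 other scalings, 2 filters, DESeq2, limma-voom, a replicate block, each mouse left out, 2 thresholds, and libraries without mitochondrial or the 20 highest genes.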

Additional observations from a re-analysis of the deposited data

How the results depend on the processing

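The 10 genes kept their direction under every alternative run, and between 7 and 10 of them were called. Called genes were 7 at the stricter threshold (adjusted p under 0.01, fold over 2), and between 8 and 10 with any single mouse left out. Over single mice left out, the log2 fold change ran from 0.92 to 1.88 for Fosb, from 0.51 to 0.97 for Fosl2 and from 0.45 to 0.79 for Jund, and calls in the Myc, Max and Mxd network from 2 (without day-21 mouse 2) to 4. Fosb could not be tested at a mean of at least 50 counts. With the replicate number as a replicate block, Fosb had a log2 fold change of 1.32 at an edgeR adjusted p of 0.0574 and 9 of the 10 were called, and no other of them changed its call. The deviations of same-numbered mice correlated across genes at -0.019, 0.165 and 0.0896. No such value was computed for differently numbered mice, so these do not decide whether the numbers pair the mice.

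At the stricter threshold 3172 of all genes were called in place of 5822, 5 bZIP partners and relatives, 12 other immediate early genes, 4 upstream genes, 1 of the Myc network and 4 Myc targets. At an adjusted p under 0.05 with any fold, 17 upstream genes passed (9 higher, 8 lower). Scaling by library size alone shifted the median over all genes tested from 0.03 to 0.42 on the log2 scale and the share of calls that were higher from 55.8% to 81.7%, all 10 genes remaining called, between 1.06 for Jund and 2.62 for Atf3. It gave 14 Myc targets (11 higher, 3 lower), 5 higher and 0 lower in the Myc network, 12 and 1 among upstream genes, and 5 and 0 in the Egr1 list, by edgeR. RLE scaling gave 5 and 2 in the Egr1 list, and upper quartile scaling 2 and 1 in the Myc network. The causes were not tested. Fosb had the lowest counts of the 10, down to 7.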

Other observations

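Genes that act on the mRNAs or kinases of the immediate early response, named here after their values were seen, moved in different directions. Among the proteins that bind AU-rich words and hasten mRNA decay, Zfp36l1 had 155, 152 and 191 CPM on day 0 and 320, 286 and 295 CPM on day 21 (log2 fold change 0.85 ± 0.12, SE, edgeR adjusted p = 0.000281). Zfp36, at between 43.9 and 55.5 CPM on day 0 and between 51.6 and 59.9 CPM on day 21, was not called (0.17 ± 0.12), nor was Zfp36l2 (-0.11 ± 0.14). Among dual-specificity phosphatases that end MAP kinase signals, Dusp5 was called higher (1.38 ± 0.36) and so was Dusp2 (2.70 ± 0.55), which passed the filter on low counts only through day 21, Dusp1 was called lower, and Dusp6, at between 54.7 and 108 CPM on day 0 and between 60.3 and 72.8 CPM on day 21, was not called (-0.23 ± 0.21).

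The Nr4a orphan receptors, early genes that often accompany Fos and Egr1, were not called. Nr4a1 had 17.7, 6.91 and 6.59 CPM on day 0 and 13.6, 13.2 and 17.5 CPM on day 21, and Nr4a3 had 12.0, 1.32 and 3.81 CPM on day 0 and 1.76, 2.03 and 4.22 CPM on day 21. In both, day-0 mouse 1 was above the other mice of its group, and every day-21 mouse of Nr4a1 was above those other day-0 mice. Folds of these genes without day-0 mouse 1 are not given here. The Ier genes Ier2 (1.23 ± 0.20), Ier3 (1.20 ± 0.14), Ier5 (1.38 ± 0.14) and Ier5l (1.98 ± 0.18) were called higher, with every day-21 mouse above every day-0 mouse.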
